A study of Homo sapiens with 12 samples.

Results

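The homologous recombination and Fanconi repair genes are 44 genes chosen by symbol, each matched to 1 Ensembl identifier of a table of 60671 genes. All 44 passed a filter on low counts that 13236 genes passed. RNA was measured in BJ-5ta cells, human fibroblasts immortalized with telomerase, as poly(A) RNA with External RNA Controls Consortium (ERCC) transcripts added to each library. Wild-type cells and ΔLEO1 cells, in which CRISPR/Cas9 removed the first exons of LEO1, were each kept in 10% serum or for 10 days in 0.1% serum. LEO1 is a subunit of the PAF1 complex, which travels with RNA polymerase II. The 4 groups were wild type in 10% serum (libraries 1, 2 and 3), ΔLEO1 in 10% serum (libraries 4, 5 and 6), wild type in 0.1% serum (libraries 7, 8 and 9) and ΔLEO1 in 0.1% serum (libraries 10, 11 and 12), with n = 3 each. The ΔLEO1 libraries all came from a single clone, clone 13, and how far clones differ from each other was not measured. The labels do not say whether the 3 libraries of a group came from separate cultures, and the p-values measure only the spread between these libraries.

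Homologous recombination repairs a broken chromosome, or restarts a stalled replication fork, by copying the sister chromatid, and so works mainly in cells that are replicating or have replicated their DNA. The broken end is trimmed to single-stranded DNA, BRCA1, PALB2 and BRCA2 prepare it for pairing with the sister chromatid, and the crossed strands that follow strand exchange are taken apart by dissolvases and nucleases. The Fanconi pathway repairs crosslinks between the strands of DNA: a core complex with the E2 enzyme UBE2T attaches ubiquitin to FANCD2 and FANCI, which bring in nucleases and the recombination proteins. Cells in low serum leave the cell cycle, and the comparisons ask how RNA of these genes differed between dividing and serum-deprived cells, and between wild-type and ΔLEO1 cells.

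Gene counts per library ran from 26240632 to 45315560 and ERCC counts made up 0.625% to 3.24% of all counts. The median count of a repair gene over the 12 libraries ran from 31 (RAD54B) to 2706 (MSH6). LEO1 had 20.4 to 30.4 counts per 1000000 gene counts (CPM) in the 6 wild-type libraries and 0.661 to 1.44 in the 6 ΔLEO1 libraries. The highest-numbered library of each group (3, 6, 9 and 12) stood apart from the other two: the chi-square per gene between replicates was 59.6 to 129 for pairs that included it and 2.87 to 11.1 for the other pairs. All 15 fibroblast markers were found at 1 CPM or more, while 6 of 10 epithelial, 6 of 8 endothelial and 5 of 8 blood cell markers stayed under 1 CPM in every library. The summed epithelial markers, nearly all of it from the keratins KRT8 and KRT18 while ESRP1 was at 0 in every library, were at 167 to 463 CPM in wild-type and 510 to 1142 CPM in ΔLEO1 libraries. Their part in the differences between genotypes was not tested.

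Values are given on 2 scales. ERCC-scaled counts are gene counts per 1000000 effective ERCC counts, so that a lower value means fewer transcripts per added ERCC transcript. The study's methods give one dilution of the ERCC mix for all samples and a range for the RNA input, but the cell number or RNA amount of each library is not given in the sources used here, and in these bulk libraries fewer cells of a type and less RNA per cell cannot be told apart. CPM gives a gene relative to all gene counts of its library. The median tested gene fell by 0.97 (log2) from 10% to 0.1% serum in wild-type cells on the ERCC scale and by 1.05 in ΔLEO1 cells, and was at 0.00 and 0.01 with the trimmed mean of M-values (TMM) computed on the genes, so a fall on the first scale is to be read against that shift. Log2 fold changes and their standard errors (SE) come from edgeR's fit to all 12 libraries with its likelihood ratio test, and a gene was called at a Benjamini-Hochberg adjusted p under 0.05 over the 13236 genes.

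Between genes, levels were compared per length, as fragments per 1000 bases of the principal transcript and 1000000 gene counts (FPKM). In wild-type cells in 10% serum they ran from 0.360 ± 0.153 (SD, n = 3) for RAD54B, a motor protein that works in strand exchange, to 10.6 ± 0.770 for NBN, the subunit of the MRE11 complex that recruits ATM. UBE2T (10.5 ± 4.85) and MSH6 (10.3 ± 1.18), which recognises mismatched bases, stood beside NBN and did not differ from it beyond their spread. MUS81, a nuclease that cuts branched DNA, had 8.12 ± 2.09, RBBP8 6.78 ± 1.68 and ATM 6.29 ± 0.336 FPKM, each within the spread of its neighbour. At the lower end RAD50 had 0.620 ± 0.0710 and POLQ, the polymerase of theta-mediated end joining, 0.545 ± 0.343 FPKM. BRCA1 (2.49 ± 1.26) lay in the middle and BRCA2 (0.866 ± 0.443) near the lower end. NBN, MSH6 and UBE2T held the first 3 ranks in all 4 groups, and RAD54B was last in all 4. RAD50 and RAD54B share 77.4% and 56.0% of their 58-base stretches with other transcripts. The levels were not adjusted for that, so the low values of these genes are to be read with this limit.

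Promoter windows of 300 bases, from 250 bases before to 50 bases after the RefSeq start site on GRCh38.p14, were found for 40 of the 44 genes. They were searched on both strands for E2F words (TTTCCCGC, TTTCGCGC, TTTGCCGC and TTTGGCGC), which match the preferred site of the E2F factors of the S phase programme, for the cell cycle homology region (CHR) word TTTGAA and for CCAAT, the site of NF-Y. An E2F word was found in 7 of the 40 windows (17.5%), those of EXO1, CLSPN, XRCC2, FANCA, FANCC, FANCD2 and MSH6, beside 3.325% of the 27305 windows in the table. CCAAT was found in 20 (50%, against 35.7% of all windows) and TTTGAA in 5 (12.5%, against 15.43%), or in 7 (17.5%, against 24.26%) with TTTAAA counted too. The members' windows had a median of 64.5% G and C and all windows 58.33%, and no share was adjusted for that. Each gene had 1 window. For RAD51B, MUS81, RBBP8, FANCC and MSH6, among others, it lies inside the annotated gene, away from its first base. For BRCA1 and RMI1 it lies wholly before the annotated gene. Other start sites were not searched. The windows printed here were chosen with the responses known. They are 3 with an E2F word next to the start site and a large fall in low serum, and 2 without such a word. Those 2 are RAD51AP1, with a large fall, and FANCL, with the smallest change in wild-type cells. MSH6 also holds an E2F word next to the start site, at +4, but its log2 fold change in wild-type cells was -1.09. Only exact words were searched for, not words with a changed letter. Capitals mark the words found, and the strand is that of the gene.
CLSPN, chr1:35769929-35770228, minus strand, 3 CCAAT words and an E2F word: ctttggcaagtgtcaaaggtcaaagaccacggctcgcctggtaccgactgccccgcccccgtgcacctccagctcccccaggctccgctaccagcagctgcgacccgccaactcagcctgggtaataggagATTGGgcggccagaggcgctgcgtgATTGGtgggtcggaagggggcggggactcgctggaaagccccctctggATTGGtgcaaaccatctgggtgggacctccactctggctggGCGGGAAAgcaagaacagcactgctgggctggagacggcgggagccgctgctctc
FANCD2, chr3:10026187-10026486, plus strand, an E2F word: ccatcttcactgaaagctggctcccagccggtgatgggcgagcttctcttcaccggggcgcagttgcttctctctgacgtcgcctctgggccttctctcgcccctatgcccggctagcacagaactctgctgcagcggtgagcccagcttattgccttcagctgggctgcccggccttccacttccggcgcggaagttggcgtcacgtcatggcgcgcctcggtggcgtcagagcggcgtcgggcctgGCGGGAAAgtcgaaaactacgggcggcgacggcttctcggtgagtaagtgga
EXO1, chr1:241847954-241848253, plus strand, an E2F word: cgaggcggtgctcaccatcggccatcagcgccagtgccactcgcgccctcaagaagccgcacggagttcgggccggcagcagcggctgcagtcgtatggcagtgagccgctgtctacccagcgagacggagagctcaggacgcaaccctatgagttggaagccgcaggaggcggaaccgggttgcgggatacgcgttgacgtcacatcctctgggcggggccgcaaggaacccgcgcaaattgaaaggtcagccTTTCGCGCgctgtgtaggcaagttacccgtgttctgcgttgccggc
RAD51AP1, chr12:4538640-4538939, plus strand, a CCAAT word: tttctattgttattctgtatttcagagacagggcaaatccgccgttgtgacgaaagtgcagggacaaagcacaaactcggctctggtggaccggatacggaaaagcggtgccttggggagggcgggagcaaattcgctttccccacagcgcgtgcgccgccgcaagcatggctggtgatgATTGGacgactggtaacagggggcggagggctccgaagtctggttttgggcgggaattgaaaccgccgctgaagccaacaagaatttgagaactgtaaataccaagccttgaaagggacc
FANCL, chr2:58241276-58241575, minus strand, none of the words: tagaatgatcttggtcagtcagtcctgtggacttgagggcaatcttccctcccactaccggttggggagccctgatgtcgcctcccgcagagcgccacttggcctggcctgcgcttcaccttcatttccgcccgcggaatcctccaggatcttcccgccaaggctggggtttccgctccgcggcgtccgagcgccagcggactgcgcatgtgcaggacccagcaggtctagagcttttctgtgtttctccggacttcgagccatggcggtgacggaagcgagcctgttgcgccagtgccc
Counted from +1 at the start site, the E2F word began at -5 in CLSPN, at -2 in FANCD2 and at +5 in EXO1. CLSPN and FANCD2 held the same 8 letters, GCGGGAAA, which is TTTCCCGC on the other strand. In the FANCL window none of these letters was found, which says nothing of the factors.

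From 10% to 0.1% serum, 33 of the 44 repair genes were called lower and none was called higher in wild-type cells, where 36.1% of all tested genes were called lower and 0.944% higher. The log2 fold changes of the 44 genes ran from -2.42 to -0.56 with a median of -1.51, below the -0.97 of all tested genes. All 44 were negative on the ERCC scale, and with TMM on the genes 38 were negative and 6 positive, with a median of -0.38, and 6 were called lower and 1 higher (16.6% and 16% of all tested genes). Without LEO1, too, 33 were lower and none higher, where 47.2% of all tested genes were called lower and 0.975% higher. Their median was -1.31, against -1.05 for all tested genes, and with TMM on the genes it was -0.31, with 36 negative and 8 positive, and 4 were called lower and 3 higher (12.9% and 16.5% of all tested genes). Called in both genotypes were 29 genes, and the share of all tested genes called in both is not given here. FANCC, FANCE, RAD51C and RBBP8 were called in wild-type cells and not in ΔLEO1 cells, and CHEK2, FANCF, NBN and PALB2 the other way round, but the interaction test called no difference between genotypes in the serum response. The 7 called in neither were ATM, FANCG, FANCL, MRE11, RAD50, RAD51B and RAD51D.

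The spread behind these calls was wide. Library 3 of wild type in 10% serum lay near the low-serum libraries for many of the genes, and library 12 of ΔLEO1 in 0.1% serum lay far above libraries 10 and 11. Most tested genes shifted in these libraries on the ERCC scale too. Against the mean of libraries 10 and 11, the median tested gene of library 12 was at 1.23 (log2), or 0.08 in CPM. For library 3 against libraries 1 and 2 the values were -0.76 and -0.02. Groups did not overlap on the ERCC scale for 22 of the 44 genes in wild type and 14 in ΔLEO1 cells, all lower in 0.1% serum, where 53.4% and 50.9% of all tested genes did so. Proliferation markers moved with the same libraries. Their 20 genes summed to 1328, 1359 and 377 CPM in libraries 1, 2 and 3 and to 536, 499 and 947 in libraries 7, 8 and 9, so library 3 was below all low-serum libraries of its genotype. In ΔLEO1 cells the sums were 1529, 1708 and 863 in 10% serum and 819, 792 and 1131 in 0.1% serum. Their part in the repair genes' response was not tested. The wild-type count of 33 became 10, 16, 12 and 19 without library 1, 2, 7 and 9 in turn, and the ΔLEO1 count of 33 became 4, 13, 2 and 9 without library 4, 5, 10 and 11. Over all 12 omissions the counts ran from 10 to 41 and from 2 to 42. The share of all tested genes called in these fits is not given here. The change in count can therefore not be set against that of all genes. Calls that held with each of the 12 libraries left out in turn were 10 in wild-type cells, EXO1, CLSPN, TIMELESS, BRCA2, RAD51AP1, FANCA, FANCB, FANCD2, BRIP1 and RMI1, and 2 in ΔLEO1 cells, XRCC2 and FANCB.

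**Figure D1:**
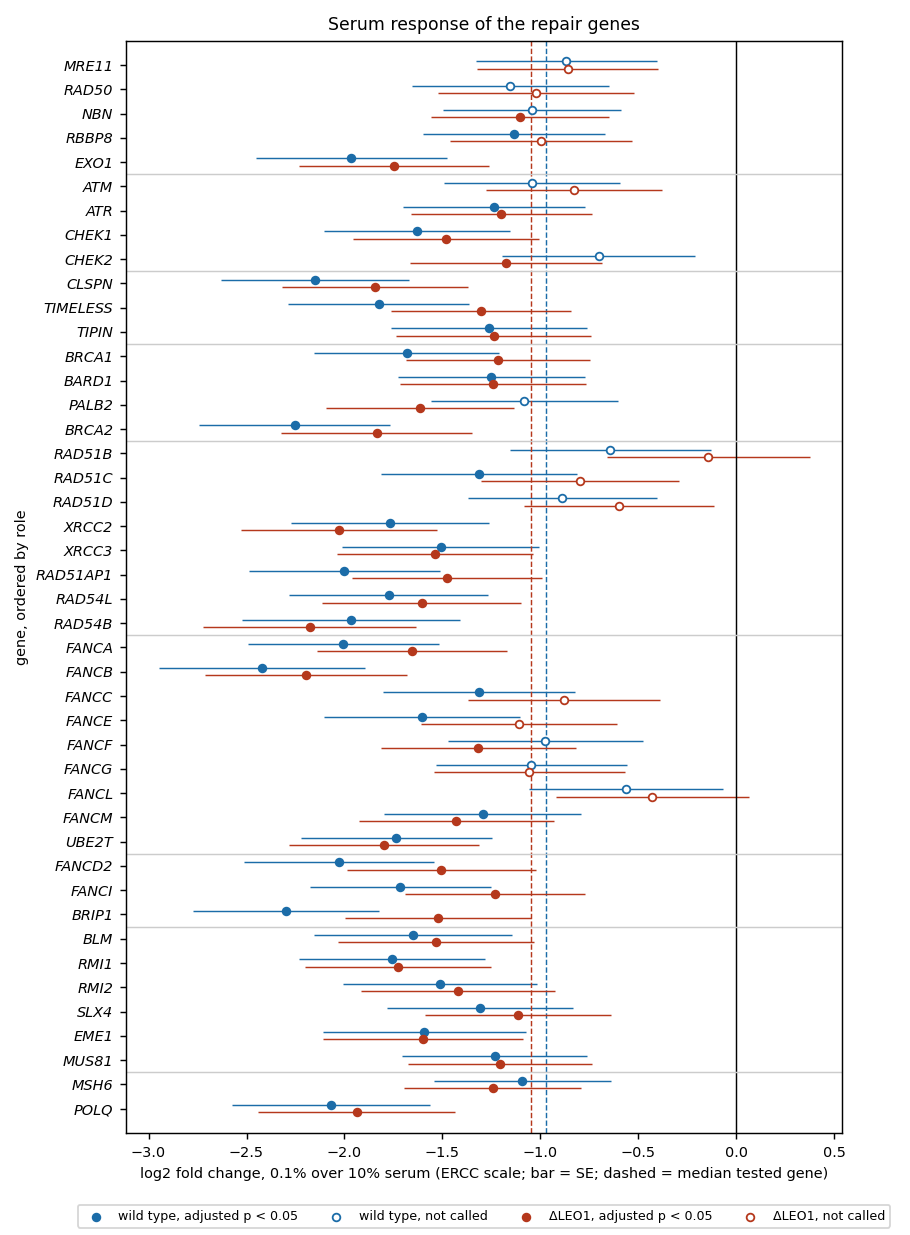
Log2 fold change of each of the 44 repair genes from 10% to 0.1% serum on the ERCC scale (x axis, bars are SE) in wild-type (blue) and ΔLEO1 cells (red), ordered by role. Filled points are called genes, 33 in each genotype, and the dashed lines mark the median tested gene at -0.97 and -1.05. With TMM on the genes 6 genes in wild type and 8 in ΔLEO1 cells were on the positive side.

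The counts by role that follow are of few genes and stand beside 36.1% (wild type) and 47.2% (ΔLEO1) of all tested genes called lower. Of the 5 genes that sense and trim broken ends 2 were called lower in each genotype, EXO1 in both, and the log2 fold changes of MRE11, RAD50 and NBN lay from -1.15 to -0.86, near that of the median gene. MRE11, the nuclease of the complex, had 3077, 2689 and 1429.8 ERCC-scaled counts in libraries 1, 2 and 3 and 1277, 1635 and 1032 in libraries 7, 8 and 9. The groups overlapped, and the log2 fold change of -0.87 (SE 0.46) was not called (adjusted p = 0.106), nor was that of -0.86 (SE 0.46) in ΔLEO1 cells. TMM on the genes put MRE11 at 0.13 in both genotypes. EXO1, the exonuclease that extends the trimmed tract, had 1556, 1255 and 276 in wild-type cells in 10% serum and 235, 262 and 291 in 0.1% serum. Libraries 1 and 2 were far above, while library 3 lay within the low-serum range, and EXO1 fell by 1.97 (SE 0.49, adjusted p = 0.00150). In ΔLEO1 cells EXO1 fell by 1.75 (SE 0.48, adjusted p = 0.00614). RBBP8 (CtIP), which starts the trimming, was called in wild-type cells only (-1.13, adjusted p = 0.0461, against -0.995 and 0.0611 in ΔLEO1 cells), and NBN in ΔLEO1 cells only (-1.10, adjusted p = 0.0394, against -1.04 and 0.0561). RAD50, at -1.15 and -1.02, was called in neither, and 77.4% of its 58-base stretches are shared with other transcripts, chiefly of AC116366.3 on the same strand.

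Of the checkpoint kinases, CHEK1 and ATR were called lower in both genotypes and ATM in neither. ATM, which responds to double-strand breaks, had 11018, 8645 and 5459 ERCC-scaled counts in libraries 1 to 3, against 4559, 5014 and 2614 in libraries 7 to 9. All 3 low-serum values were below all 3 values in 10% serum, and the log2 fold change of -1.04 (SE 0.45) missed the threshold (adjusted p = 0.0551). In ΔLEO1 cells ATM went from 8767, 6568 and 6228 to 2850.1, 1792 and 7504, where library 12 exceeded 2 of the 3 libraries in 10% serum (-0.83, SE 0.45, adjusted p = 0.0990). ATR, which responds to single-stranded DNA at stalled forks, fell by 1.24 (SE 0.46, adjusted p = 0.0319) in wild-type cells, from 3149.5, 2606 and 1692 to 1204, 1202 and 752, without overlap. In ΔLEO1 cells it fell by 1.20 (SE 0.46, adjusted p = 0.0318), and library 12, at 2896, lay among the 3 libraries in 10% serum (3979.9, 3248 and 2756), while libraries 10 and 11 had 883 and 575. An antisense gene covers 2048 bases of ATR exons. CHEK1, the kinase downstream of ATR, had 2150.4, 2019 and 693 counts in wild type in 10% serum and 476, 559 and 535 in 0.1% serum and did not overlap. It fell by 1.63 (SE 0.48, adjusted p = 0.00737) and, in ΔLEO1 cells, by 1.48 (SE 0.47, adjusted p = 0.0152). CHEK2, the kinase downstream of ATM, had 878, 941 and 381 counts against 452, 503 and 394 in wild-type cells, where library 3 was the lowest of the 6 (-0.70, SE 0.49, adjusted p = 0.202). In ΔLEO1 cells it went from 1672, 1327 and 624 to 469, 293 and 843 and was called (-1.18, SE 0.49, adjusted p = 0.0420).

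The 3 genes of fork protection were called lower in both genotypes. CLSPN, which carries the signal from ATR to CHEK1, had 2161, 1799 and 386 ERCC-scaled counts in libraries 1 to 3 and 292, 333 and 352 in libraries 7 to 9. Its groups did not overlap, though library 3 was close to the low-serum values, and it fell by 2.15 (SE 0.48, adjusted p = 3.72e-04) in wild-type and by 1.84 (SE 0.48, adjusted p = 0.00326) in ΔLEO1 cells. TIMELESS and TIPIN form a complex that couples the helicase to the polymerases at the fork. TIMELESS had 4142, 3692 and 964 against 755, 795 and 927 counts in wild-type cells and fell by 1.83 (SE 0.46, adjusted p = 0.00174). In ΔLEO1 cells it fell by 1.31 (SE 0.46, adjusted p = 0.0227), from 6076, 4709 and 2504 to 1172, 739 and 3472, with library 12 above library 6. TIPIN fell by 1.26 and 1.24 (adjusted p = 0.0406 and 0.0368), with a ribosomal protein pseudogene on the same strand in its exons.

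Of the 4 genes of the BRCA group, which prepare the trimmed end for strand exchange, 3 were called lower in 0.1% serum in wild-type and 4 in ΔLEO1 cells. BRCA1, a ubiquitin ligase that works with BARD1 and recruits PALB2, had 2963, 2451 and 526 ERCC-scaled counts in wild type in 10% serum and 522, 674 and 653 in 0.1% serum. Libraries 1 and 2 were high and library 3 lay at the bottom of the low-serum range, and BRCA1 fell by 1.68 (SE 0.47, adjusted p = 0.00536). In ΔLEO1 cells the values went from 2781, 2404 and 1184 to 579, 351 and 1817, with library 12 above library 6 (-1.22, SE 0.47, adjusted p = 0.0325). BRCA2, which acts on the trimmed single-stranded DNA, had 1711, 1399.7 and 296 against 218, 246 and 248 in wild-type cells. It did not overlap between the serum levels and fell by 2.25 (SE 0.49, adjusted p = 2.50e-04). In ΔLEO1 cells BRCA2 went from 2186, 1959.5 and 871 to 259, 136 and 1018 and fell by 1.84 (SE 0.49, adjusted p = 0.00415), with library 12 above library 6. PALB2, the bridge between BRCA1 and BRCA2, had 1732, 1335 and 1033 against 711, 919.6 and 308 in wild-type cells, without overlap (-1.08, SE 0.48, adjusted p = 0.0601). In ΔLEO1 cells, at 2316, 1787 and 1400.3 against 530.0, 342 and 928, it did not overlap either and was called (-1.62, SE 0.48, adjusted p = 0.00981). BARD1 fell by 1.25 in wild-type and by 1.24 in ΔLEO1 cells (adjusted p = 0.0345 and 0.0309).

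**Figure D2:**
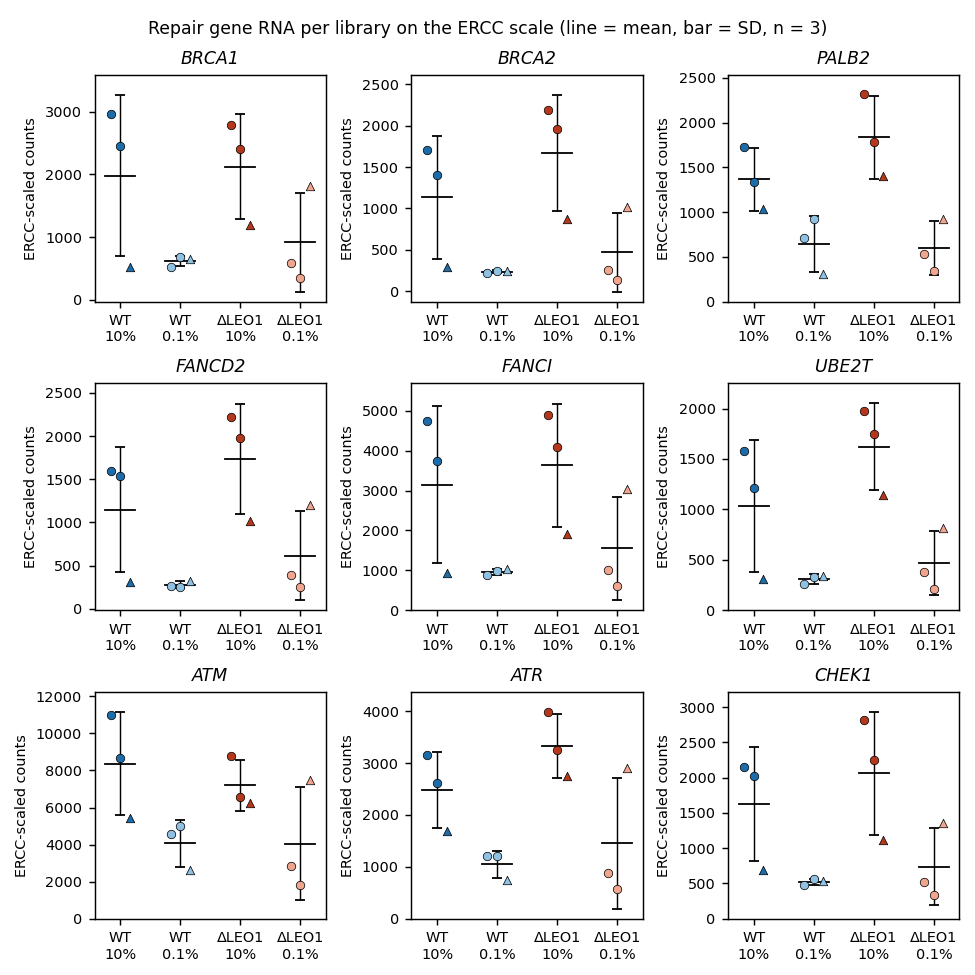
ERCC-scaled counts (y axis) of 9 repair genes in each library of the 4 groups, with triangles for the highest-numbered library of a group, lines for the mean and bars for the SD (n = 3). In wild type in 10% serum library 3 had 296 counts of BRCA2 where the others had 1711 and 1399.7, and in ΔLEO1 cells in 0.1% serum library 12 had 1018 where the others had 259 and 136.

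Among the paralogs and cofactors that assist strand exchange with the intact duplex, 6 of 8 were called lower in wild-type and 5 of 8 in ΔLEO1 cells. XRCC2 fell by 1.77 (SE 0.51, adjusted p = 0.00640) in wild-type cells, from 653, 523 and 115 ERCC-scaled counts to 106, 140.2 and 131. Library 3 lay within the low-serum range there, while in ΔLEO1 cells the values of 1289, 1165 and 641 did not overlap with 197, 124 and 442, a fall by 2.03 (SE 0.50, adjusted p = 0.00208). RAD51AP1, which promotes the pairing of strands, had 1366, 1137 and 252 against 175, 234 and 276 in wild-type cells (-2.00, SE 0.49, adjusted p = 0.00123) and fell by 1.48 (adjusted p = 0.0170) in ΔLEO1 cells. RAD54B fell by 1.97 and by 2.18 (adjusted p = 0.00568 and 0.00237), from 281, 216 and 112 to 27.3, 11 and 103 in ΔLEO1 cells. It had 12 to 84 counts per library, and 56.0% of its 58-base stretches are shared with other transcripts, chiefly FSBP on the same strand. RAD54L, the other motor protein, fell by 1.77 and 1.61 (adjusted p = 0.00646 and 0.0142), and XRCC3 by 1.51 and 1.54 (adjusted p = 0.0178 and 0.0163), though 5756 bases of XRCC3 exons are also exons of KLC1 on the opposite strand. RAD51B, RAD51C and RAD51D form a complex with XRCC2. RAD51C was called in wild-type cells (-1.31, adjusted p = 0.0351) and not in ΔLEO1 cells (-0.80, adjusted p = 0.150). RAD51B had 404, 324 and 170.1 against 204, 207 and 163 in wild-type cells, and 289.5, 252 and 104 against 188, 78.3 and 321 in ΔLEO1 cells. The groups overlapped in both genotypes, and the log2 fold changes of -0.64 (SE 0.51) and -0.14 (SE 0.52) were not called. RAD51D, at -0.89 (SE 0.48) and -0.60 (SE 0.48), was not called either. Relative to all genes both were higher in 0.1% serum in ΔLEO1 cells: with TMM on the genes RAD51B rose by 0.91 (SE 0.27, adjusted p = 0.00471) and RAD51D by 0.46 (SE 0.14, adjusted p = 0.00414), where 16.5% of all tested genes were called higher.

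In the Fanconi core complex with UBE2T, 6 of 9 genes were called lower in wild-type and 5 of 9 in ΔLEO1 cells, and FANCB fell most in both. FANCB, an X-linked partner of the ligase FANCL, had 373, 354 and 161 ERCC-scaled counts in libraries 1 to 3 and 55.6, 66.7 and 43.4 in libraries 7 to 9. The groups were far apart, and FANCB fell by 2.42 (SE 0.53, adjusted p = 2.55e-04). In ΔLEO1 cells it went from 628, 568 and 237 to 77.2, 35.9 and 206, again without overlap, and fell by 2.20 (SE 0.52, adjusted p = 0.00121). FANCB was still lower with TMM on the genes, by 1.40 and 1.23 on the log2 scale (adjusted p = 1.32e-04 and 6.16e-04). FANCL, the ligase that modifies FANCD2 and FANCI, had 878, 826 and 503 against 428, 623 and 442 counts in wild-type cells and 754, 692 and 560.1 against 460.4, 271 and 763 in ΔLEO1 cells. The serum levels overlapped in both genotypes, and log2 fold changes of -0.56 (SE 0.49) and -0.43 (SE 0.49) were not called. Relative to all genes FANCL was higher in 0.1% serum, by 0.42 (SE 0.16, adjusted p = 0.0299) and 0.65 (SE 0.16, adjusted p = 5.95e-04) with TMM on the genes, and had 9.15, 10.3 and 11.9 CPM in libraries 7 to 9 against 6.96, 7.86 and 7.24 in libraries 1 to 3. FANCA (-2.01 and -1.65), FANCM (-1.30 and -1.43) and UBE2T (-1.74 and -1.80) were called lower in both genotypes. UBE2T had 1576, 1212 and 308 counts against 256, 331 and 341 in wild-type cells, with library 3 among the low-serum values, and 1974, 1749 and 1146 against 376, 209.9 and 819.8 in ΔLEO1 cells, without overlap. FANCC (-1.31 and -0.88) and FANCE (-1.60 and -1.11) were called in wild-type cells only, FANCF (-0.98 and -1.32) in ΔLEO1 cells only and FANCG (-1.05 and -1.06) in neither. Exons of ZNF276 cover 2302 bases of FANCA exons on the opposite strand, and whether reads were counted by strand is not given in the sources used here. Exons of other genes on the opposite strand also cover parts of RAD54L (LRRC41), FANCL (VRK2), EME1 (LRRC59), FANCF (GAS2), MUS81 (CFL1), CHEK2 (HSCB) and FANCD2 (FANCD2OS).

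The substrates and the helicase of the pathway were called lower in both genotypes. FANCD2 had 1594, 1534 and 310.0 ERCC-scaled counts in wild type in 10% serum and 261, 255 and 324 in 0.1% serum. Library 3 was just below library 9, and FANCD2 fell by 2.03 (SE 0.49, adjusted p = 9.87e-04). In ΔLEO1 cells it went from 2222, 1978 and 1016 to 388, 249 and 1205 (-1.51, SE 0.48, adjusted p = 0.0152), with library 12 above library 6. FANCI, the partner of FANCD2 in the clamp on DNA, had 4761, 3743 and 943 against 875, 975 and 1025 in wild-type and 4897, 4102 and 1911 against 1015, 609 and 3032 in ΔLEO1 cells. One library crossed over in each genotype, as for FANCD2, and FANCI fell by 1.72 (SE 0.46, adjusted p = 0.00358) and by 1.23 (SE 0.46, adjusted p = 0.0284). BRIP1 (FANCJ), a helicase that binds BRCA1, had 3136, 2488 and 811 against 408, 439 and 459.7 in wild-type cells and 2341, 1831 and 1324 against 441, 254 and 1223 in ΔLEO1 cells. It overlapped in neither genotype and fell by 2.30 (SE 0.48, adjusted p = 1.22e-04) and by 1.52 (SE 0.47, adjusted p = 0.0130).

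The 6 genes of junction dissolution and resolution were called lower in both genotypes, with log2 fold changes from -1.76 to -1.23 in wild-type and from -1.73 to -1.12 in ΔLEO1 cells. RMI1, which binds the BLM helicase in the dissolvasome, did not overlap on either scale in either genotype: it had 18.9, 18.2 and 15.6 CPM in libraries 1 to 3 and 11.7, 9.98 and 11.8 in libraries 7 to 9, and 15.8, 17.5 and 15.3 against 9.57, 8.39 and 12.3 in ΔLEO1 cells. Under TMM on the genes it fell by 0.74 (SE 0.16, adjusted p = 3.76e-05) in wild-type and fell by 0.75 (SE 0.16, adjusted p = 2.96e-05) in ΔLEO1 cells. RMI1 and FANCB were the members called lower in both genotypes on that scale. BLM, RMI2, EME1, SLX4 and MUS81 were not called there. For MUS81 library 3 (1750.4 ERCC-scaled counts) was level with library 2 (1738) and above the low-serum values of 698, 936 and 736. MSH6 fell by 1.09 and 1.24 (adjusted p = 0.0469 and 0.0251), with exons of FBXO11 over 1785 bases on the opposite strand. POLQ went from 878, 633 and 93.9 to 106, 119.5 and 155 in wild-type cells, where library 3 was the lowest of the 6 (-2.07, SE 0.51, adjusted p = 0.00129). The ΔLEO1 value was -1.94 (SE 0.50, adjusted p = 0.00341).

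**Figure D3:**
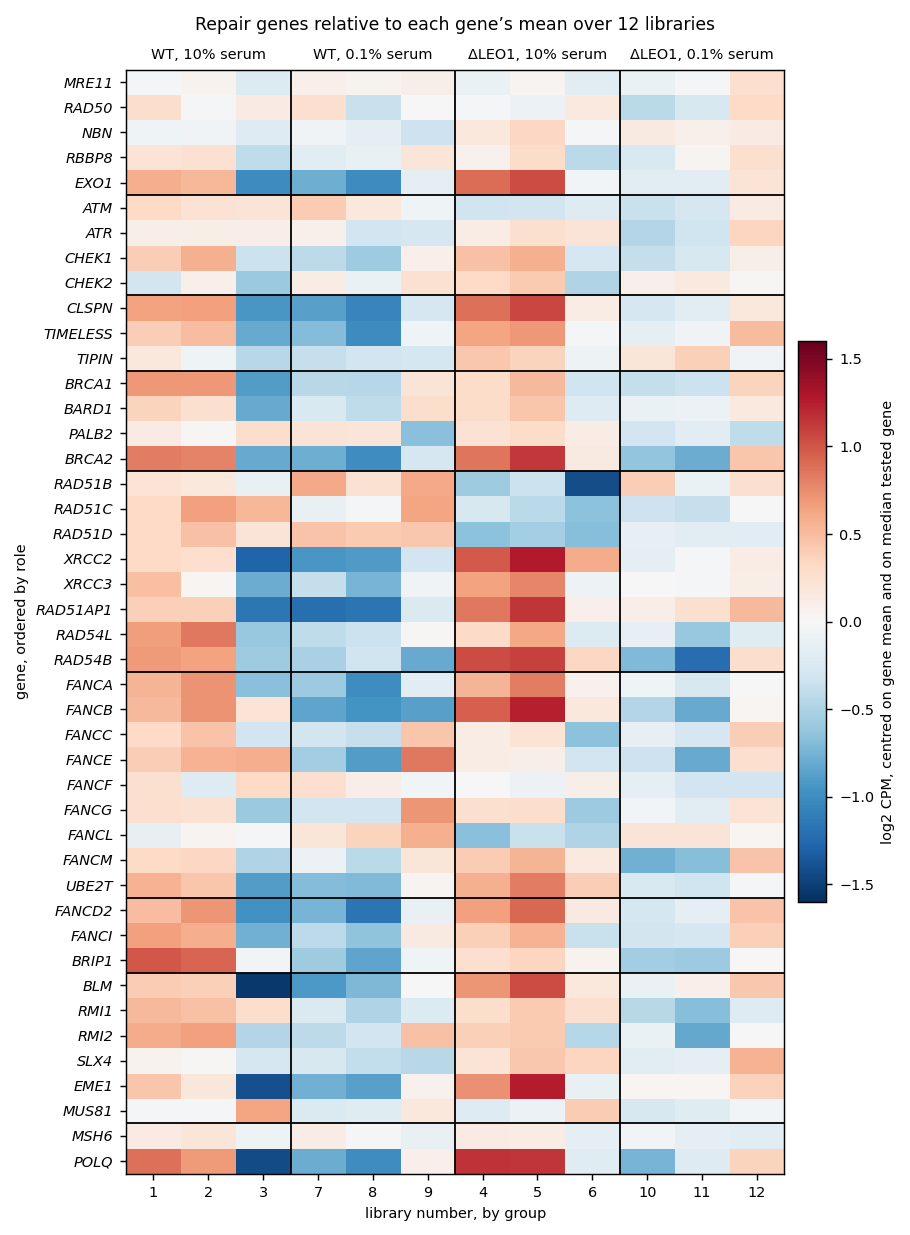
Log2 CPM of the 44 repair genes (rows, by role) in the 12 libraries (columns, by group), centred on each gene's mean and on the median tested gene of the library (red higher, blue lower). Libraries 3, 6, 9 and 12 differ from the other two of their group, and MRE11, RAD50, NBN and MSH6 vary little beside EXO1, CLSPN and POLQ.

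The highest-numbered libraries on their own gave another picture, which was looked at after the data were seen and has 1 library on each side, hence no test. Library 9 over library 3 gave a median log2 ratio of -0.19 on the ERCC scale for the repair genes in wild-type cells, with 30 of 44 negative, where the median tested gene was at -0.77. Library 12 over library 6 gave 0.23 in ΔLEO1 cells, with 14 of 44 negative and the median tested gene at -0.06. As log2 ratios of CPM the medians were 0.58 and 0.39, and those of all tested genes were 0.11 and 0.14. FANCB (-1.87), PALB2 (-1.74) and RMI1 (-1.30) were lowest in the wild-type pair on the ERCC scale, and BLM (0.77), POLQ (0.71) and EME1 (0.68) were highest. Fitted to the pair of lowest-numbered libraries per group alone, 43 genes were called lower in wild-type cells, all but FANCL, and 44 in ΔLEO1 cells, but 72.4% and 93.1% of all tested genes were called lower there. On those 8 libraries with TMM on the genes, added after the data were seen, 32 were called lower and 1 higher in wild-type cells (30.8% and 28% of all tested genes), and 32 lower and 3 higher in ΔLEO1 cells (28.4% and 29.2%). The genes called higher were FANCL in wild-type and FANCL, RAD51B and RAD51D in ΔLEO1 cells, the same as with TMM on all 12 libraries.

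Beside other lists, the repair genes lay between replication genes and other repair genes. In wild-type cells 31 of 32 replication origin and fork genes were called lower with a median of -1.62, or -0.52 with TMM on the genes, and all 20 proliferation markers with a median of -1.93, or -0.77. Another 50 genes of recombination and the Fanconi pathway, of which 48 were tested, had 17 called lower and a median of -1.02, or -0.0072 with TMM on the genes. Of 18 genes of non-homologous end joining, the repair path that needs no sister chromatid, 5 were called lower, with a median of -0.97, that of all tested genes, or -0.0071 with TMM on the genes. In ΔLEO1 cells the medians of these lists were -1.47, -1.75, -1.11 and -1.15 in the same order. DNA2, a nuclease that trims ends beside EXO1, fell by 2.19 (SE 0.51, adjusted p = 6.88e-04) in wild-type cells, and REV3L (-0.42) and RAD52 (-0.47), the smallest changes of that list, were not called. The wild-type counts of these lists stand beside 36.1% of all tested genes called lower. No test compared the lists.

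**Figure D4:**
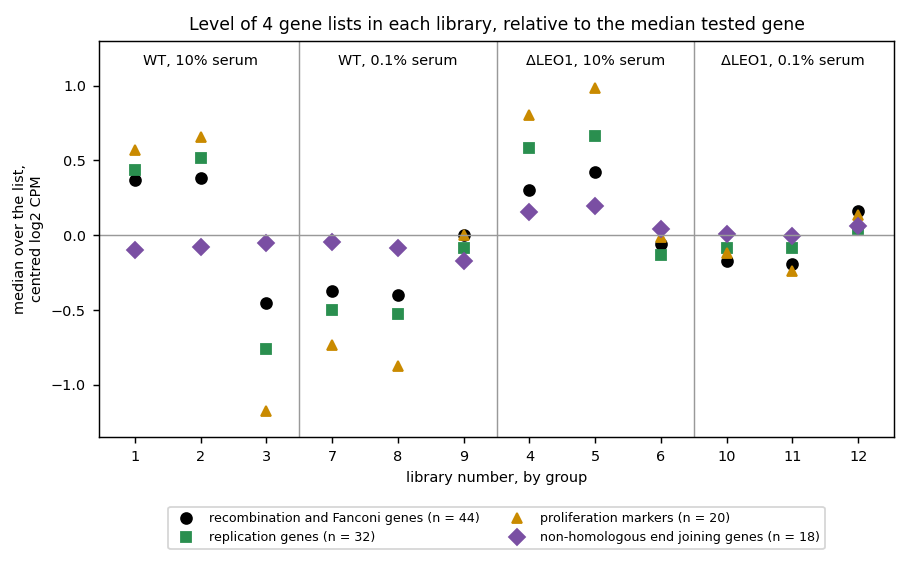
Median of centred log2 CPM over each of 4 gene lists (y axis) in each library (x axis, by group), where 0 is the mean of a gene over the 12 libraries relative to the median tested gene. The repair genes (black) were at 0.37, 0.38 and -0.45 in libraries 1, 2 and 3 and at -0.38, -0.40 and 0.00 in libraries 7, 8 and 9, and they stood between the proliferation markers and the end joining genes in libraries 1, 2, 3, 4, 5, 7, 8 and 11 and outside them in libraries 6, 9, 10 and 12.

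The promoter words can be set beside the responses. The 7 genes with an E2F word had a median log2 fold change of -1.97 in wild-type and -1.65 in ΔLEO1 cells, with a range from -2.15 to -1.09 in wild-type cells. The 33 genes with a window and no such word had medians of -1.31 and -1.24 and ranged from -2.42 to -0.56 in wild-type cells, so the ranges overlapped. FANCB, BRIP1, BRCA2 and POLQ, with larger or like falls, had no E2F word in this window. For the 20 genes with CCAAT the wild-type median was -1.57 and for the 20 without -1.31. For the 5 genes with TTTGAA it was -1.736 and for the 35 without -1.315. Among the proliferation markers TTTGAA was found in 46.67% and CCAAT in 86.67% of the windows, against 12.5% and 50% among the members. The share of windows with an E2F word was 55.17% among 29 replication genes with a window, 13.33%, or 2 of 15, among the proliferation markers, which had the most negative median of the lists, 13.64%, or 6 of 44, among the other recombination genes, and 7.692%, or 1 of 13, among the end joining genes. These are descriptions with no test.

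Between genotypes in 10% serum no repair gene was called on the ERCC scale, where 4.64% of all tested genes were called lower in ΔLEO1 cells and 4.2% higher. The median log2 fold change of ΔLEO1 over wild type was 0.42 for the 44 genes and 0.35 for all tested genes. At an unadjusted p under 0.05 there were 2, with 1 each by the quasi-likelihood test and DESeq2, which also called none. The share of all tested genes under that threshold is not given here, so these counts are no result about the members. The largest positive values of the 44 genes were 1.27 (SE 0.50, adjusted p = 0.113) for XRCC2, 1.01 (SE 0.51, adjusted p = 0.297) for EME1, a partner of MUS81, and 0.97 (SE 0.48, adjusted p = 0.284) for RAD51AP1. XRCC2 had 653, 523 and 115 ERCC-scaled counts in wild type and 1289, 1165 and 641 in ΔLEO1 cells, and only library 6 of the ΔLEO1 libraries lay below the highest wild-type value. EME1 had 446, 308 and 65.6 in wild type and 673, 720.0 and 244 in ΔLEO1 cells, and the groups overlapped. The most negative were RAD51D (-0.64, SE 0.48), RAD51C (-0.58, SE 0.50) and RAD51B (-0.48, SE 0.52).

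Relative to all genes, 5 repair genes were called lower and 1 higher in ΔLEO1 cells in 10% serum, with TMM on the genes, where 21.8% and 17.7% of all tested genes were called. RAD51D (chr17:35092208-35121522 on GRCh38, minus strand) had 13.9, 15.4 and 12.5 CPM in wild-type and 7.04, 7.68 and 6.78 in ΔLEO1 cells. All 3 ΔLEO1 libraries were far below (-0.97, SE 0.13, adjusted p = 6.86e-12). RAD51C (chr17:58692573-58735611, plus strand) had 5.89, 7.40 and 6.66 against 3.92, 3.49 and 2.90 CPM (-0.96, SE 0.23, adjusted p = 1.71e-04). RAD51B (chr14:67819779-68730218, plus strand) had 3.21, 3.09 and 2.45 against 1.83, 2.16 and 0.990 (-0.82, SE 0.27, adjusted p = 0.00815), so these 3 paralogs, subunits of one complex, were lower in all ΔLEO1 libraries than in any wild-type library in 10% serum. XRCC2, the fourth subunit, was called the other way, with 5.18, 4.98 and 1.66 against 8.15, 10.0 and 6.08 CPM (1.03, SE 0.36, adjusted p = 0.0148). ATM had 87.4, 82.3 and 78.6 against 55.4, 56.4 and 59.1 (-0.55, SE 0.15, adjusted p = 0.00178) and FANCL 6.96, 7.86 and 7.24 against 4.77, 5.94 and 5.31 (-0.47, SE 0.16, adjusted p = 0.0128). None of the 6 was called on the ERCC scale. In CPM 6 repair genes were lower and 3 higher in ΔLEO1 cells without overlap, and 29.6% and 29.8% of all tested genes did so. With TMM on the genes in the 8 libraries without the highest-numbered ones the same 6 were called, among 8 lower and 14 higher repair genes (32.6% and 31% of all tested genes). On the ERCC scale XRCC2 was the single member called in those 8 libraries (1.06, adjusted p = 0.0323), with 6.72% of all tested genes called higher. Leaving out library 11 or library 12 also brought 1 call of a higher repair gene, with no share of all tested genes given here. RAD51D shares 8% of its 58-base stretches with other genes, among them the readthrough gene RAD51L3-RFFL.

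In 0.1% serum 1 repair gene, RAD51AP1, was called higher in ΔLEO1 cells and none lower, with 3.85% and 3.59% of all tested genes. RAD51AP1 (chr12:4538798-4560048 on GRCh38, plus strand) had 175, 234 and 276 ERCC-scaled counts in wild-type and 468, 306 and 1167 in ΔLEO1 cells. Every ΔLEO1 library was above every wild-type library on the ERCC scale, as for 4.64% of all tested genes, and also in CPM, at 8.88, 10.2 and 12.9 against 3.74, 3.89 and 7.40. It was higher by 1.49 on the log2 scale (SE 0.49, adjusted p = 0.0376), and with TMM on the genes it was 1.09 (SE 0.41, adjusted p = 0.0296), where 15.4% of all tested genes were called higher. The call was not made by the quasi-likelihood test (adjusted p = 0.0579) or DESeq2 (adjusted p = 0.257), and without library 12 the log2 fold change was 0.76 (adjusted p = 0.333). It was also lost without library 2, 5, 7, 8 or 9, and without library 11 a total of 10 repair genes were called higher. The share of all tested genes called higher in that fit is not given here. With the 8 lowest-numbered libraries none was called higher, and ATM and RAD51D were called lower, with 15.9% of all tested genes. The next positive values, FANCD2 at 1.12 (SE 0.49, adjusted p = 0.203) and TIMELESS at 1.12 (SE 0.46, adjusted p = 0.161), were not called, and in both library 12 was far above libraries 10 and 11. On the ERCC scale library 12 was above the mean of those libraries for 13008 of the 13236 tested genes. The median over the 44 genes was 0.49 and over all tested genes 0.27, and in those 8 libraries these were -0.28 and -0.42, so the sign of the median rested on the highest-numbered libraries. RAD51D was the lowest member, at -0.35 (SE 0.48), before FANCF (-0.14, SE 0.50) and PALB2 (-0.11, SE 0.48). FANCF had 367, 425 and 235 ERCC-scaled counts in wild type and 292, 155 and 491 in ΔLEO1 cells, where library 12 was above and library 11 below all wild-type libraries. In CPM RAD51D had 16, 15.8 and 15.8 in wild-type and 10.1, 10.1 and 10.7 in ΔLEO1 cells, and with TMM on the genes it was called lower (-0.61, SE 0.13, adjusted p = 3.88e-05), where 17.6% of all tested genes were. RAD51C (-0.44, SE 0.23, adjusted p = 0.138) and RAD51B (-0.31, SE 0.26, adjusted p = 0.392) were not called with that scaling. Their genotype groups overlapped in CPM in 0.1% serum, unlike in 10% serum. With TMM on the genes in the 8 lowest-numbered libraries 6 were called lower (ATM, ATR, FANCF, FANCM, PALB2 and RAD51D) and 14 higher, with 29.8% and 31.1% of all tested genes.

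**Figure D5:**
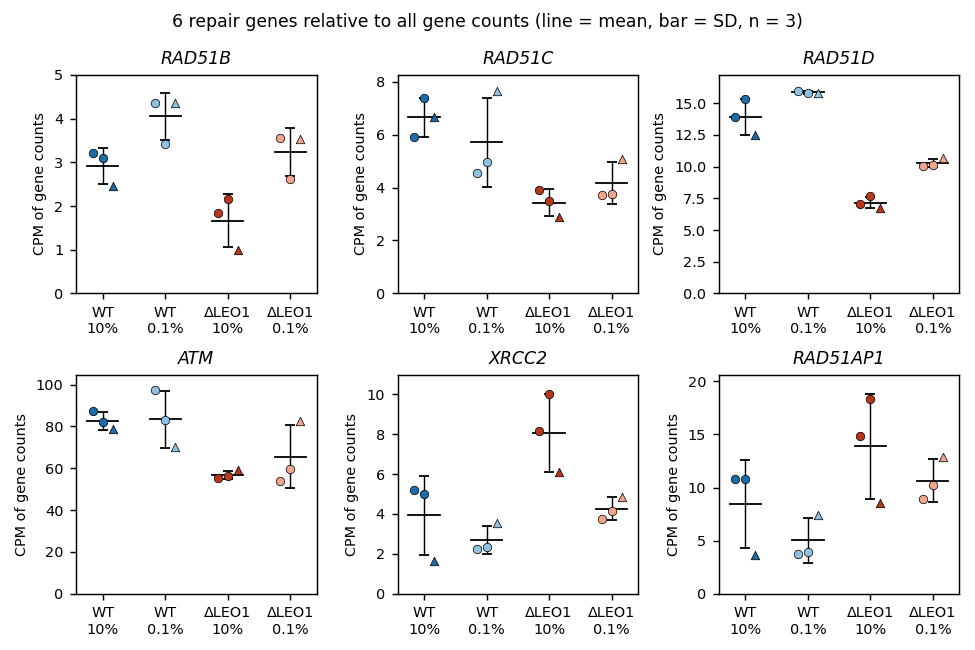
CPM (y axis) of 6 repair genes in each library of the 4 groups, with triangles for the highest-numbered library of a group, lines for the mean and bars for the SD (n = 3). RAD51D was at 12.5 to 15.4 in wild-type and 6.78 to 7.68 CPM in ΔLEO1 cells in 10% serum, and RAD51AP1 in 0.1% serum at 3.74 to 7.40 and 8.88 to 12.9.

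No difference in serum response between genotypes was called for any repair gene by the test of the interaction, where 0.0831% of all tested genes were called with a stronger and 0.136% with a weaker fall or a rise in ΔLEO1 cells. None had an unadjusted p under 0.05, by the likelihood ratio test, the quasi-likelihood test or DESeq2, and the adjusted p was 1.00 for each of the 44. How many of all tested genes were under that unadjusted threshold is not given here. The most positive interaction values were BRIP1 at 0.77 (SE 0.67), RAD51AP1 at 0.53 (SE 0.69) and TIMELESS at 0.52 (SE 0.65), and the most negative PALB2 at -0.53 (SE 0.68), CHEK2 at -0.47 (SE 0.69) and FANCF at -0.34 (SE 0.70). These SEs exceed the serum responses of FANCL and RAD51B in either genotype, so differences of that size were not detectable here. None was called with TMM on the genes either, and 1.02% and 3.06% of all tested genes were. Dropping the highest-numbered libraries as well, 2 were called negative (FANCM and PALB2) and 10 positive (BRCA1, BRIP1, CLSPN, FANCA, FANCD2, FANCI, RAD51AP1, RAD51C, RAD51D and TIMELESS), with 9.99% and 17.5% of all tested genes.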

How the data were processed

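Per the labels, the authors demultiplexed with bcl2fastq 2.20.0.422, aligned with STAR 2.7.10a to GRCh38 and counted reads per gene with featureCounts 1.5.1, and the deposited table holds these raw counts for 12 libraries. Which annotation release was used, and whether reads were counted by strand, is not given in the sources used here, while the library kit keeps strand. The ERCC counts of the same libraries were deposited as a table of their own. The 44 members and all other lists were chosen with earlier results of these data known. Genes above 1 CPM in at least 3 libraries were tested (13236). A negative binomial model was fitted to all 12 libraries at once in edgeR 4.0.16 (R 4.3.3) with a two-sided likelihood ratio test for each contrast, and the library size was the ERCC total times its TMM factor. This scaling takes the ERCC transcripts to have been added alike to each library, and an error in 1 addition moves every gene of that library. Adjusted p-values are Benjamini-Hochberg values over all genes tested. The script was also run on simulated counts, which were drawn gene by gene with no unmodelled shift common to all genes of a library. That run therefore does not measure the error under shifts such as those of libraries 3 and 12. Alternatives were DESeq2 1.42.0 with size factors from the ERCC counts, edgeR's quasi-likelihood test, TMM on the genes, no filter, the 2 lowest-numbered libraries of a group, and each library left out in turn. Values per library were given for 10 genes fixed by name, for the 3 most negative and 3 most positive members of each comparison and for members called between genotypes, and for other members by role where their libraries overlapped or stood apart, which was chosen after their values were seen. The values of 1 gene are not reported here. Exon overlaps and lengths came from GENCODE 29 and promoters from RefSeq on GRCh38.p14. Tables and figures were made with Python 3.11.15, pandas 2.3.3, numpy 2.4.6 and matplotlib 3.10.9.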

Additional observations from a re-analysis of the deposited data

How the results depend on the processing

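No paired analysis was made, as the libraries are numbered 1 to 12 and groups share no number. The model held no term for the highest-numbered library of each group. Whether those libraries shared a batch is not given in the labels. Their difference from the others of their group is therefore part of the spread behind the SEs and p-values. With TMM on the genes, which sets the median gene near 0, the calls were 6 lower and 1 higher in wild-type cells and 4 lower and 3 higher in ΔLEO1 cells for the serum response, 5 lower and 1 higher between genotypes in 10% serum, and 1 lower and 1 higher in 0.1% serum. With that scaling and the 2 lowest-numbered libraries of each group, added after the data were seen, they were 32 and 1, 32 and 3, 8 and 14, and 6 and 14, and the interaction had 2 and 10. With these libraries and ERCC scaling 1 gene was called higher between genotypes in 10% serum, and 2 were called lower and 0 higher in 0.1% serum. The quasi-likelihood test, DESeq2 and no filter each gave 0 higher there, and 29 (27% of all genes), 30 (43.5%) and 23 (10.5%) lower for serum in wild-type, and 30 (36.4%), 23 (52.6%) and 23 (13.3%) in ΔLEO1 cells. The 23 calls without a filter came with 38 and 37 of the 44 at an unadjusted p under 0.05. The share of all genes under that threshold is not given here. The fit without a filter held 32285 genes, and the cause of its lower counts was not tested.

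Leaving out 1 library at a time, which leaves at least 2 in each group, gave 10 to 41 genes called lower in wild-type and 2 to 42 in ΔLEO1 cells, 0 to 1 higher between genotypes in 10% serum and 0 to 10 in 0.1% serum. The shares of all tested genes called in these fits are not given here. Both signs occurred for 0 of the 44 in the wild-type and 1 in the ΔLEO1 serum response, RAD51B (-0.69 to 0.24), for 14 between genotypes in 10% serum and 31 in 0.1% serum, among them FANCF (-0.62 to 0.19) and PALB2 (-0.57 to 0.23), and for 41 in the interaction, among them TIMELESS (-0.39 to 0.94), RAD51AP1 (-0.21 to 0.97) and BRIP1 (-0.10 to 1.17). TMM on the genes turned the response in wild-type cells for MRE11 (0.13), CHEK2 (0.33), RAD51B (0.39), FANCL (0.42), RAD51D (0.10) and FANCG (0.091), and in ΔLEO1 cells for ATM (0.13), MRE11 (0.13), RAD51B (0.91), FANCL (0.65), RAD51D (0.46), RBBP8 (0.026), RAD51C (0.22) and FANCC (0.087). With the 2 lowest-numbered libraries as well, it was PALB2 (0.12), ATM (0.0058), MRE11 (0.035), CHEK2 (0.094), RAD51B (0.23), FANCL (0.30), RAD51D (0.032) and FANCF (0.14) in wild-type and ATM (0.0062), RAD51B (0.61), FANCL (0.71) and RAD51D (0.44) in ΔLEO1 cells, and on these libraries with ERCC scaling the interaction of TIMELESS was -0.16. RAD54B, with as few as 12 counts in a library, was the member most limited by depth. The cause of these changes was not tested.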

Other observations

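Among 18 genes of non-homologous end joining, SHLD2, a subunit of the shieldin complex that protects broken ends from trimming, fell by 1.66 (SE 0.46, adjusted p = 0.00494, edgeR) from 10% to 0.1% serum in wild-type cells, and PRKDC, the catalytic subunit of the DNA-dependent kinase, fell by 1.502 (SE 0.44, adjusted p = 0.00768). POLM (-0.52) and APTX (-0.74), the smallest changes of that list, were not called. In the replication list GINS1, a subunit of the replicative helicase, fell by 2.30 (SE 0.49, adjusted p = 2.20e-04) and MCM10 by 2.25 (SE 0.49, adjusted p = 2.63e-04), while POLA1, the catalytic subunit of DNA polymerase alpha, was the single gene of its 32 not called in wild-type cells (-0.997, adjusted p = 0.0735).

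Library 3, compared with the mean of libraries 1 and 2, had a median log2 difference of -1.58 over the repair genes on the ERCC scale, with 44 of 44 negative. The median tested gene was at -0.76 there, with 12859 of 13236 negative. Library 6 stood at -1.02 against libraries 4 and 5 (all genes -0.41) and library 9 at 0.02 against libraries 7 and 8 (all genes -0.52). Library 12 stood at 1.59 against libraries 10 and 11, with 44 of 44 positive (all genes 1.23, with 13008 of 13236 positive). These are values of single libraries, with no test.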
